A study of Mus musculus with 9 samples.

Results

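The 9 genes of the NF-kB pathway described here were followed in sorted bone marrow stromal cells of mice as leukemia progressed: the subunit genes Nfkb1, Nfkb2 and Relb, the inhibitor genes Nfkbia, Nfkbie and Nfkbiz, the ubiquitin enzyme genes Tnfaip3 and Birc3, and Tnfaip2, a gene named for its induction by tumour necrosis factor. The 9 genes were listed by symbol as members of the pathway, with earlier results of these data known. A probe set annotated with a single gene symbol was found for 8 of them, out of 18194 genes represented in this way, and Nfkb1 is not analysed here. The 8 genes had 20 such probe sets among 34958, and each gene was represented by the probe set with the highest mean over all arrays. The mean signal of 6 of the 8 lay over the median of all represented genes (6.83 on the log2 scale), and these were tested among the 9097 genes at or over it. Relb and Nfkbie lay under it and were read from a fit over all 18194 genes.

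RNA was taken from marrow cells that lacked CD45.1 (a form of the leukocyte protein CD45) and Ter119 (found on red cell precursors) on their surface, and was measured on 9 Affymetrix arrays. The mice were of the FVB/NJ strain, and 3 arrays each were made from wild type mice (WT), from leukemic recipients in the early phase (E, leukemic share of the marrow 1 to 5%) and from leukemic recipients in the medium phase (M, 5 to 50%). The study asked how stromal expression shifts from step to step of leukemic growth. The labels call the arrays of a group biological replicates. They give neither the ages, the leukemia model nor how many mice were pooled for an array, so p-values measure the spread between these arrays. Latent and late phases were not analysed here.

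NF-kB is a family of dimeric transcription factors that IkB proteins hold inactive, mostly in the cytoplasm. Inflammatory receptors activate the IKK kinases, which mark IkB proteins for destruction, and the freed dimers switch on a set of genes that includes their own inhibitors. This feedback makes Nfkbia and Tnfaip3 transcripts common markers of recent NF-kB activity, although other factors act on them as well. An alternative branch of the pathway works through the precursor protein of Nfkb2, which is cut to an active subunit that pairs with the product of Relb.

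In E, Nfkbia fell 1.75-fold and Tnfaip3 fell 1.75-fold against WT, 0 of the 8 genes rose (2 were higher at an unadjusted p under 0.05 in limma), and the Tnfaip3 call did not hold without any 1 of the 6 arrays compared. In M, 7 of the 8 genes rose against WT on the deposited scale, by 1.77-fold for Nfkbia to 12.3-fold for Nfkbiz, while Tnfaip2 fell 1.29-fold. On a scale set by control RNAs the Nfkbia difference between M and WT changed sign without passing the test (-0.17), and the rises of Nfkb2, Relb and Tnfaip3 no longer passed, whereas those of Nfkbiz, Nfkbie and Birc3 and the fall of Tnfaip2 did.

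The promoter windows of these genes show where the letters that NF-kB dimers are known to bind occur near the transcript starts. RefSeq windows from 250 bases before to 50 bases after an annotated start (GRCm38.p6) were given for 6 of the 9 genes, 9 windows in all, and none for Nfkb1, Relb and Nfkbiz. The genes without a window lie at chr7:19606217-19629438 (Relb), chr16:55811375-55838954 (Nfkbiz) and chr3:135584655-135691969 (Nfkb1). The windows were searched on both strands for the kB consensus, which occurred in 2779 of 32851 windows of all genes (8.46%). It occurred in 7 of the 9 windows and in 5 of the 6 genes with a window, beside 2581 of 27025 genes in all (9.55%). The most upstream window of each of the 6 genes is printed, with or without a match, to show how the letters lie in the genes whose values follow, each 5′ to 3′ on the gene's strand, with matches to the kB consensus in capitals:
Nfkbia: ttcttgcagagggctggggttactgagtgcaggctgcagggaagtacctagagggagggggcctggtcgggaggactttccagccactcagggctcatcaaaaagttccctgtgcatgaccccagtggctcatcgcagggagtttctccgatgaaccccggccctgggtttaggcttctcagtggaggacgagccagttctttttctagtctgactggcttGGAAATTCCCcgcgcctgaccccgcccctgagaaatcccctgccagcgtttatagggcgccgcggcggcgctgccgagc
Tnfaip3: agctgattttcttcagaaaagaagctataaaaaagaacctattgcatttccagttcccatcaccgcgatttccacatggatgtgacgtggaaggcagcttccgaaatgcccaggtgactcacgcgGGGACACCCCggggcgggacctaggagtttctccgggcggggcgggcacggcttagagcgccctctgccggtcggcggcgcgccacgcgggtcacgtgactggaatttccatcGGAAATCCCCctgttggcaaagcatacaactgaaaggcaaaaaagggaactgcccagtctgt
Nfkb2: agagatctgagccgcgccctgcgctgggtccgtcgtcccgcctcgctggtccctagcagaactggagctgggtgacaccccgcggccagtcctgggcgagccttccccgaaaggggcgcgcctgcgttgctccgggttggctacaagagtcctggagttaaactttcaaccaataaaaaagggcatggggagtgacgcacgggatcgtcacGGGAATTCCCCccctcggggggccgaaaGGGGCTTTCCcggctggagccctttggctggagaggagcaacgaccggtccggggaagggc
Nfkbie: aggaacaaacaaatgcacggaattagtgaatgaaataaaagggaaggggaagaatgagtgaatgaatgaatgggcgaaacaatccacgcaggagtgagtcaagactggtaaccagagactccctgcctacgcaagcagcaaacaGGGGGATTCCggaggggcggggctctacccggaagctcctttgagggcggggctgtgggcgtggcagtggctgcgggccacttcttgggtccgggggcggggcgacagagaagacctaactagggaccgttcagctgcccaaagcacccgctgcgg
Birc3: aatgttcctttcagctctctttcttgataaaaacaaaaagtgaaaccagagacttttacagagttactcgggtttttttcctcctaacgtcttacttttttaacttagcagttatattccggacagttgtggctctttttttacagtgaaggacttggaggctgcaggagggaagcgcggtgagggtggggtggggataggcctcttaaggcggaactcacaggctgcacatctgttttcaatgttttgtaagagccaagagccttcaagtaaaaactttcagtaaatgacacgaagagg
Tnfaip2: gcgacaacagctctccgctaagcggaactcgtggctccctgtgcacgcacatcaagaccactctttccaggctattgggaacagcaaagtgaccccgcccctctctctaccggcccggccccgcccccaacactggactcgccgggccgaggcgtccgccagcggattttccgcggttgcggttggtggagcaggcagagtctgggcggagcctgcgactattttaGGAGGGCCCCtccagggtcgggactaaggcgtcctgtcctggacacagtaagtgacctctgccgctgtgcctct

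In the Nfkbia window, on the minus strand of chromosome 12 (chr12:55492598-55492897), the match lay 29 to 20 bases before the start on the opposite strand. The first Tnfaip3 window, on the minus strand of chromosome 10 (chr10:19015361-19015660), held a match on both strands 125 to 116 bases before the start and one on the opposite strand 12 to 3 bases before it. The second Tnfaip3 window held 0 matches. The first Nfkb2 window, on the plus strand (chr19:46304487-46304786), held 3 matches, of which 2 overlapped at 39 to 29 bases before the start and 1 lay 11 to 2 bases before it. Nfkbie (plus strand, chr17:45555450-45555749) had its match 106 to 97 bases before the start. Tnfaip2 (plus strand, chr12:111442411-111442710) had its match 24 to 15 bases before it, on the opposite strand. The window of Birc3 (minus strand, chr9:7873121-7873420) held 0 matches, which says only that these letters are not in this window. A match describes letters, not binding, which was not measured.

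**Figure D1:**
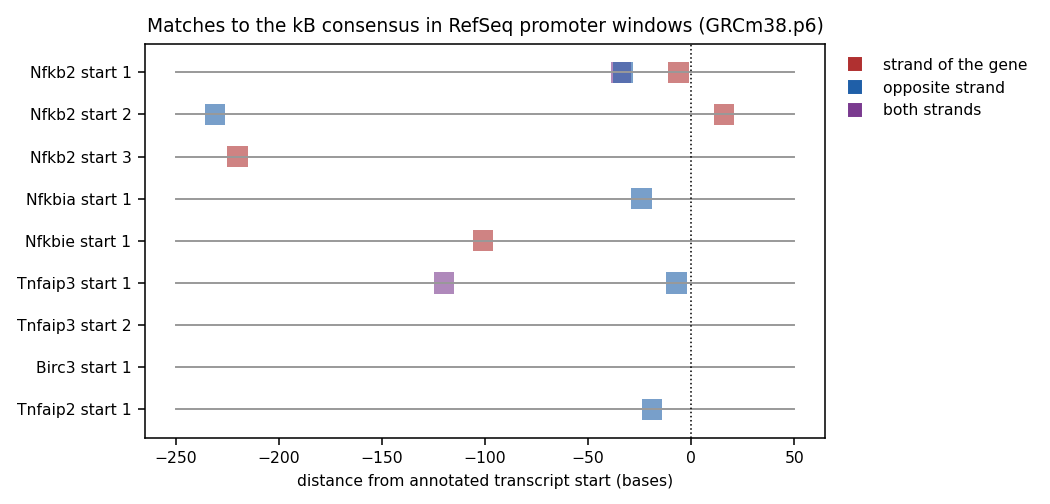
Positions of matches to the kB consensus in the 9 RefSeq promoter windows of 6 genes, in bases from the annotated start (dotted line), coloured by strand. The darkest square of Nfkb2 start 1 is 2 overlapping matches. 7 of the 9 windows hold a match, and those of Birc3 and of the second Tnfaip3 start hold 0.

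Signals are log2 MAS5 values, which were scaled so that every array has the same trimmed mean. The M arrays stood apart in several measures. Their median over all 45101 probe sets was 6.24 to 6.28, against 5.60 to 5.68 in WT, and 12 probe sets for control RNAs added before labelling gave signals 1.99-fold those of WT in M (log2 difference 0.99, exact permutation test, two-sided p = 0.1, the smallest that 3 against 3 arrays allow). In E these controls differed from WT by -0.06 (p = 0.7 by the same exact test). M replicate 3 also stood apart within its group: its root mean square difference was 0.442 from each of the other M arrays, where all other pairs of one group lay at 0.215 to 0.250. Ptprc, which encodes CD45, read 9.68 to 9.91 in WT, 9.45 to 9.74 in E and 10.25 to 11.17 in M, and Cxcl12, a defining gene of marrow stroma, read 8.53 to 8.75, 8.80 to 8.93 and 12.75 to 12.82. The sorted cells of every group thus held transcripts of leukocyte as well as of stromal genes. Of 97 marker genes with a probe set 0 were at the deposited zero on any array. Only 249 to 754 of the 45101 probe sets of an array were at it, so a value over zero does not show expression. Fewer cells of a type and less RNA per cell cannot be told apart in such bulk samples.

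Among the subunit genes, Nfkb2 gave signals of 6.21, 6.48 and 6.67 in WT, 6.91, 6.79 and 7.94 in E, and 8.26, 7.64 and 7.55 in M. All E arrays and all M arrays lay over all WT arrays, while E and M overlapped because the highest E array exceeded 2 of the M arrays. The M mean of 7.82 ± 0.39 against 6.45 ± 0.23 in WT (SD, n = 3 each) was a rise of 1.37 on the log2 scale (SE 0.31, 2.58-fold, limma adjusted p = 0.00237). This rise lost its call when scaled by the control RNAs (0.37, limma adjusted p = 0.249). It also did so where the gene's probe sets were averaged (1.04, limma adjusted p = 0.0510), which brings in a probe set under the filter. The E mean of 7.22 ± 0.63 exceeded that of WT by 0.76 (95% interval 0.08 to 1.45, adjusted p = 0.298), which did not pass after adjustment. With the probe sets averaged the E difference from WT was 0.013. M exceeded E by 0.60 (interval -0.08 to 1.29, adjusted p = 0.104), and without the highest E array, E replicate 3, by 0.97 (adjusted p = 0.00877). Scaling by the control RNAs turned that difference to -0.45 and median centring to -0.16, neither of which passed.

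Relb, whose product is the partner of the processed Nfkb2 subunit, read 6.02, 6.35 and 5.69 in WT, 5.54, 6.16 and 5.62 in E, and 7.55, 7.35 and 7.41 in M. The M arrays lay close together and over both other groups, which overlapped. Relb rose to 7.44 ± 0.10 in M, against 6.02 ± 0.33 in WT, by 1.42 (SE 0.29, 2.68-fold, limma adjusted p = 0.00151), and M exceeded E (5.77 ± 0.34) by 1.67 (adjusted p = 0.000428). The E mean differed from WT by -0.25 (interval -0.88 to 0.39). Scaled by the control RNAs, both calls were lost: the M rise was 0.43 over WT (adjusted p = 0.410) and 0.61 over E (adjusted p = 0.224).

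Nfkbia encodes IkB-alpha, the inhibitor that is destroyed and resynthesised fastest when NF-kB is activated. It read 13.15, 13.14 and 13.32 in WT, 12.31, 12.55 and 12.32 in E, and 14.14, 13.96 and 13.98 in M. The 3 groups did not overlap, with E at the bottom and M at the top. The E mean of 12.40 ± 0.14 was 0.81 lower than the WT mean of 13.20 ± 0.10 (SE 0.08, 1.75-fold, limma adjusted p = 0.000477). This fall kept its call under all 22 alternative settings, with values of -0.89 to -0.67 and adjusted p of 1.17e-05 to 0.0101. M exceeded E by 1.63 (3.10-fold, adjusted p = 2.82e-08), and that call held under the 22 settings as well. M exceeded WT by 0.83 on the deposited scale (1.77-fold, adjusted p = 7.95e-06), by 0.20 after median centring (adjusted p = 0.0813), and by -0.17 when scaled by the control RNAs (adjusted p = 0.400), so whether it lies over or under WT in M rests on the scaling.

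Nfkbie encodes IkB-epsilon, a slower inhibitor of Rel dimers. Its signals were 5.07, 4.56 and 4.73 in WT, 4.20, 4.97 and 5.43 in E, and 7.98, 8.20 and 8.70 in M. WT and E overlapped, all 6 of their values were under the median of all probe sets of the same array, and each M value lay over them. Nfkbie rose to 8.29 ± 0.37 in M, against 4.79 ± 0.26 in WT, by 3.51 (SE 0.39, 11.4-fold, limma adjusted p = 1.21e-05). M exceeded the E mean of 4.87 ± 0.62 by 3.42 (adjusted p = 1.19e-05). The E difference from WT was 0.08 (interval -0.76 to 0.92) and turned negative without E replicate 3 (-0.20).

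Nfkbiz encodes IkB-zeta, a nuclear family member that assists NF-kB at a subset of inflammatory genes such as Il6. It read 8.38, 8.18 and 8.23 in WT, 7.81, 7.86 and 8.02 in E, and 11.69, 11.66 and 12.29 in M. The groups did not overlap, and M stood far over both others. Nfkbiz rose to 11.88 ± 0.36 in M, against 8.26 ± 0.10 in WT, by 3.62 (SE 0.16, 12.3-fold, limma adjusted p = 1.08e-08), and M exceeded E by 3.98 (15.8-fold, adjusted p = 3.82e-09). With control RNA scaling the M rise over WT was 2.62 and still passed. The E mean of 7.90 ± 0.11 differed from WT by -0.36 (interval -0.71 to -0.02, adjusted p = 0.324) and did not pass. It passed with array weights (adjusted p = 0.0214) and without M replicate 3 (adjusted p = 0.0324), where the SE was 0.097 in place of 0.16.

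Tnfaip3 encodes a ubiquitin-editing enzyme that shuts off signalling between the receptors and the IKK kinases. Its signals were 8.40, 8.50 and 8.69 in WT, 7.47, 7.79 and 7.92 in E, and 10.24, 10.05 and 9.70 in M. As for Nfkbia, each E array lay under and each M array over all WT arrays. Tnfaip3 fell to 7.73 ± 0.24 in E, against 8.53 ± 0.15 in WT, by 0.80 on the log2 scale (SE 0.16, 1.75-fold, limma adjusted p = 0.0326). That call was lost when any single array of E or WT was left out (adjusted p = 0.0538 to 0.156) and with quantile normalization (-0.70, adjusted p = 0.0955) or control RNA scaling (-0.74, adjusted p = 0.102). In M it rose by 1.46 over WT (2.76-fold, adjusted p = 1.66e-05) on the deposited scale and by 0.47 (adjusted p = 0.0548) when scaled by the control RNAs. M exceeded E by 2.27 (4.81-fold, adjusted p = 4.51e-07).

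Birc3 encodes a ubiquitin ligase of the inhibitor of apoptosis family that works at tumour necrosis factor receptors. It read 7.79, 7.67 and 7.51 in WT, 7.48, 7.39 and 7.40 in E, and 9.68, 9.74 and 9.77 in M. The M arrays lay close together and over all the rest. Birc3 rose to 9.73 ± 0.04 in M, against 7.66 ± 0.14 in WT, by 2.07 (SE 0.12, 4.21-fold, limma adjusted p = 8.25e-08), and by 1.08 when scaled by the control RNAs (adjusted p = 3.22e-05). M exceeded E by 2.31 (4.95-fold, adjusted p = 2.69e-08). The E mean of 7.42 ± 0.05 differed from WT by -0.23 (interval -0.49 to 0.03), and the highest E array lay just under the lowest WT array.

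Tnfaip2, which encodes a protein linked to membrane protrusions, fell in M, where the other 7 genes rose on the deposited scale. In E all its arrays lay over those of WT, as for Nfkb2. It read 13.24, 13.26 and 13.30 in WT, 13.46, 13.51 and 13.39 in E, and 13.00, 12.94 and 12.77 in M. The groups did not overlap, with M at the bottom and E at the top, the order opposite to that of Nfkbia. Tnfaip2 fell to 12.90 ± 0.12 in M, against 13.26 ± 0.03 in WT, by 0.36 (SE 0.07, 1.29-fold, limma adjusted p = 0.000691), and M was 0.55 lower than E (1.47-fold, adjusted p = 2.80e-05). The fall against WT was 1.36 when scaled by the control RNAs. The E mean of 13.45 ± 0.06 exceeded WT by 0.19 (interval 0.04 to 0.34, adjusted p = 0.230). It passed with array weights (adjusted p = 0.0220), without M replicate 3 (adjusted p = 0.0241) and in a fit of E and WT alone (adjusted p = 0.0316).

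**Figure D2:**
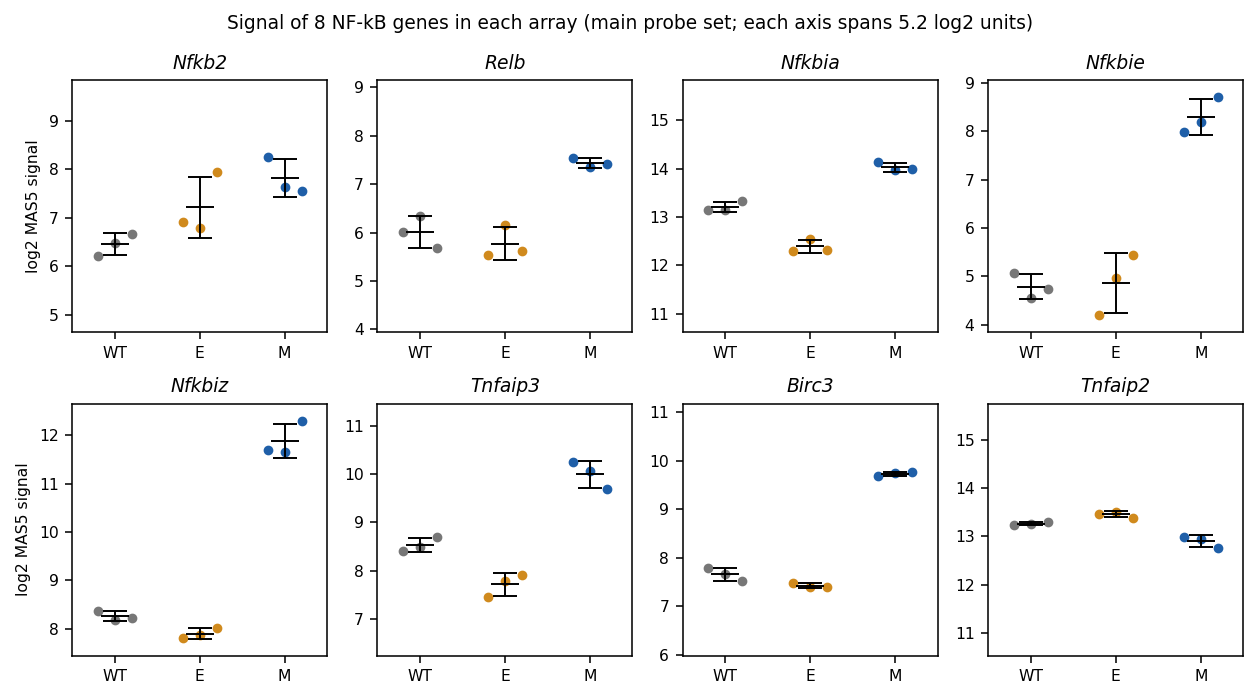
Log2 MAS5 signal of the main probe set of the 8 genes in each of the 9 arrays (points), with the mean and SD of each group of 3 (bars). Every panel spans the same number of log2 units. Nfkbia and Tnfaip3 are lowest in E and highest in M on the deposited scale, and on the scale of the control RNAs the Nfkbia difference between M and WT is -0.17. Nfkbie, Nfkbiz and Birc3 are separated in M, and Tnfaip2 is lowest there.

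Calls of members in E are set beside the background of all genes as a description, since the members were listed with earlier results known. Of the 6 tested genes 2 were lower in E than in WT, where 1.65% of the 9097 tested genes were, and 0 were higher, where 0.462% were. Of the 2, the Tnfaip3 call was lost with quantile normalization, with control RNA scaling and without any 1 array of E or WT. In the fit over all 18194 genes, 2 of the 8 were lower (0.693% of genes) and 0 higher (0.159%). The E and WT arrays of all 6 tested genes did not overlap, 4 with E lower (14.7% of tested genes) and 2 with E higher (15.0%), and those of the other 2, Relb and Nfkbie, overlapped (without the filter 11.3% of genes had E lower and 9.45% had E higher). Nfkb2, 1 of the 2 with E higher, had a WT mean of 6.45, under the filter, and was tested because of its E and M arrays.

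In M the background itself was high. Against WT, 5 of the 6 tested genes rose, where 25.3% of tested genes did, and 1 fell, where 43.5% did, and the arrays of all 6 did not overlap (26.5% of tested genes had M higher without overlap, 45.5% had M lower). Nfkb2 is 1 of the 5, and it was over the filter only through its E and M arrays (WT arrays 6.21 to 6.67, filter 6.83). In the fit over all 18194 genes, 7 of the 8 rose (22.2% of genes) and 1 fell (21.1%), again with 0 overlaps (28.3% had M higher without overlap, 24.4% had M lower). Against E, 4 of the 6 rose (26.1% of tested genes), 1 fell (43.9%), and Nfkb2 neither passed nor separated the arrays (27.2% of tested genes had M higher without overlap, 45.9% had M lower). Over all genes, 6 of the 8 rose in M against E (24.1%) and 1 fell (21.4%), and the same numbers had no overlap (30.5% and 24.3%). An F test over the 3 groups passed for 6 of the 6, where 70.2% of tested genes passed.

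The median difference over the 6 tested members was -0.30 in E against WT and 1.41 in M against WT, beside 0.01 and -0.19 over all tested genes. Ranked among the M differences from WT of all 18194 genes, Nfkbiz stood at percentile 96.7, Nfkbie at 96.3, Birc3 at 88.1, Tnfaip3 at 81.9, Relb at 81.3, Nfkb2 at 80.6, Nfkbia at 71.3 and Tnfaip2 at 27.3. For E against WT, Nfkbia stood at percentile 11.1 and Tnfaip3 at 11.2, so the 2 calls came with differences that more than 11% of genes matched or exceeded downwards. Nfkbia and Tnfaip3 were both lower in E and higher in M than in WT with a call each time, which was so for 123 of the 9097 tested genes (1.35%). Both comparisons use the same WT arrays, so their values are given side by side and not as independent measurements.

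The other probe sets of a gene read different stretches of its transcripts, and names ending in _s_at or _x_at mark probe sets that can match several transcripts. The main probe sets of Nfkb2 and Tnfaip2 end in _x_at and that of Nfkbie in _s_at, so this limit holds for their values above. In a fit over all 34958 probe sets with a single symbol, 4 of the 20 member probe sets were lower in E than in WT, where 0.446% of probe sets were, and all 4 belong to Nfkbia. None was higher (0.0915% of probe sets were). The 5 Nfkbia probe sets ran from -0.94 to -0.61 in E against WT, and the one at -0.61 did not pass (adjusted p = 0.114). All 5 rose in M against WT, by 0.69 to 1.69. In that limma fit the main probe set of Tnfaip3 did not pass in E (adjusted p = 0.0513). The second Tnfaip3 probe set, under the filter, differed by 0.98 in E, the opposite direction (adjusted p = 0.716). For Nfkb2 the second probe set, also under the filter, differed by -0.74 in E (adjusted p = 0.813), and the main one by 0.76.

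In M against WT, 14 of the 20 probe sets rose (18.5% of probe sets did) and 2 fell (16.7%). Against E, 14 rose (20.6%) and 2 fell (16.8%). All 3 probe sets of Nfkbiz rose, by 1.83 to 3.62, and both of Nfkbie, by 2.56 and 3.51. The 3 Nfkbiz probe sets had differences of -0.96 to -0.32 in E, of which 0 passed after adjustment in limma. The 2 that fell in M belong to Tnfaip2, the main one and a second (-0.75, adjusted p = 1.39e-05). The remaining 4 had mean signals under the filter and wide intervals. They were the second probe sets of Nfkb2 (0.72, adjusted p = 0.529), Tnfaip3 (1.87, adjusted p = 0.0592) and Birc3 (2.05, adjusted p = 0.0749), and the third of Tnfaip2, which differed by 1.49 in the direction opposite to the other Tnfaip2 probe sets (adjusted p = 0.119).

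**Figure D3:**
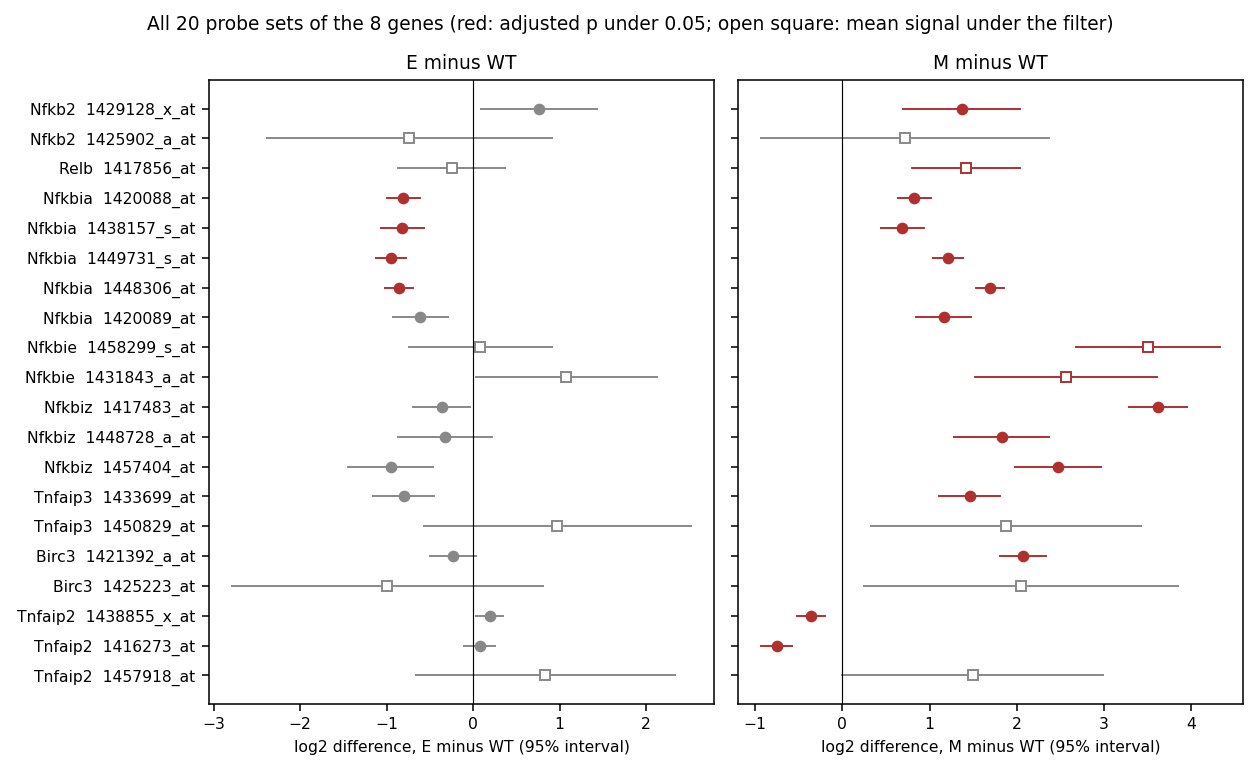
Log2 difference of E minus WT (left) and M minus WT (right) for the 20 probe sets of the 8 genes, with 95% intervals, in red where the adjusted p is under 0.05 and with open squares where the mean signal lies under the filter. In E 4 of 5 Nfkbia probe sets pass, and in M 14 probe sets pass above and 2 below WT. Values are on the deposited scale.

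The scaling moved every M value. The median difference of the tested genes between M and WT was -0.19 as deposited, -0.28 after quantile normalization, -0.82 after centring each array on its median and -1.18 when scaled by the control RNAs. The share of called genes that were higher in M was 36.8% as deposited, 16.0% after median centring and 11.9% with control RNA scaling. With control RNA scaling 972 of the 9097 tested genes were called higher in M than in WT and 7175 lower. All 7 risen genes lay over the median difference as deposited and after quantile normalization. Median centring and control RNA scaling shift all genes of an array alike, so they cannot change a gene's distance from that median. On the deposited scale, after quantile normalization and after median centring, Nfkb2, Relb, Nfkbie, Nfkbiz, Tnfaip3 and Birc3 were called higher in M than in WT, and on the control RNA scale Nfkbie, Nfkbiz and Birc3 were. Nfkbia was called higher as deposited and after quantile normalization, and Tnfaip2 was called lower under all 4 scalings.

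In E against WT the same medians were 0.01, 0.01, 0.14 and 0.07, a smaller spread than in M, although calls moved with the scaling. Nfkbia was lower in E by 0.81, 0.84, 0.67 and 0.75 under the 4 scalings, with a call under each. Tnfaip3 had -0.80, -0.70, -0.67 and -0.74, with a call as deposited and after median centring. The share of called genes that were higher in E was 21.9% as deposited and 56.0% after median centring.

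**Figure D4:**
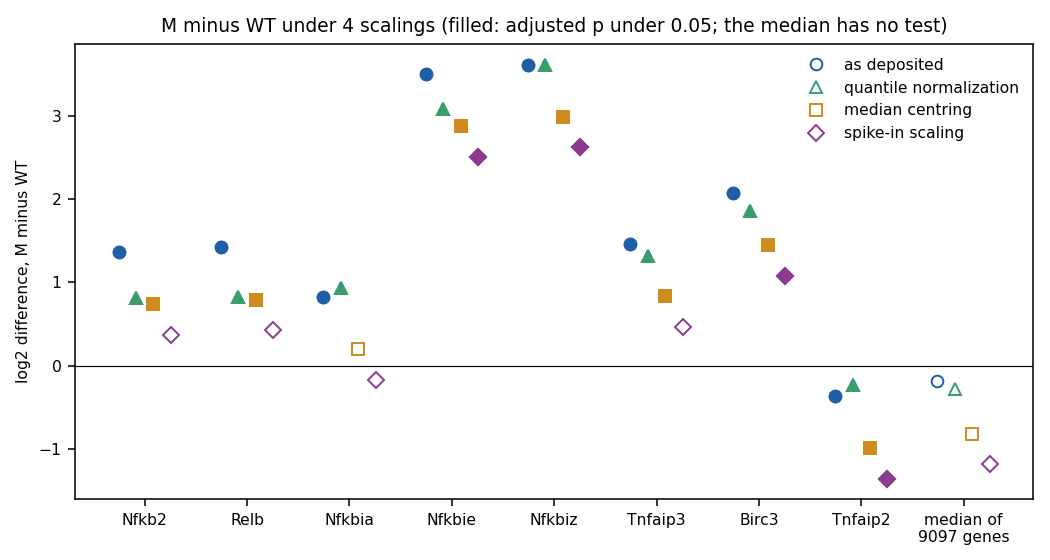
Log2 difference of M minus WT for the 8 genes and for the median of the 9097 tested genes under 4 scalings, filled where the adjusted p is under 0.05 (the median has no test). Nfkbia is at 0.83 as deposited and at -0.17 on the control RNA scale, where Nfkbie, Nfkbiz and Birc3 stay filled above 0 and Tnfaip2 below 0.

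The members differed in the genes whose signals followed theirs most closely over the 9 arrays, by Pearson correlation of log2 values among the tested genes. The arrays share their group structure, so these are descriptions. Closest to Nfkbia were Jun (r = 0.993), Ccn2 (0.992) and Satb1 (0.991), which also had lower means in E and higher means in M than in WT. Tnfaip3 was closest to Mpo (0.987), Col9a1 (0.985) and Ncf4 (0.985). Nfkbiz was closest to Anxa3 (0.999), Ahnak (0.999) and Igfbp5 (0.999), and Birc3 to Ier5 (0.999), Hmgcs1 (0.998) and Cdkn1a (0.998). Nfkbie was closest to Dusp3 (0.996), Pde4dip (0.994) and Bmpr1a (0.994), and Relb to Smad5 (0.991), Abhd4 (0.991) and Acvr1b (0.979). Nfkb2 had weaker matches, Ifi30 (0.933), Actn4 (0.910) and Fbxo34 (0.906). Tnfaip2 was closest to Uqcrfs1 (0.995), Tsfm (0.992) and Rab5if (0.990). Among the members, the 21 pairs without Tnfaip2 had correlations of 0.37 to 0.99, and the 7 pairs with it -0.95 to -0.47. After removal of the group means the 21 pairs ran from -0.70 to 0.72.

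Other genes of the pathway were read from lists of textbook members. Of 10 other Rel subunits and IkB family genes and their regulators, 7 were over the filter. In E 0 of the 7 passed against WT in limma, also at an unadjusted p under 0.05 (0 of the 10 passed without the filter), and in M 5 fell and 0 rose. The 5 include Rela, the main activating subunit (10.86 ± 0.09 in M, 11.12 ± 0.08 in WT, -0.26, adjusted p = 0.0114, lost without WT replicate 3 with 0.0537), and Nfkbib, a further IkB (7.74 ± 0.21 in M, 8.49 ± 0.22 in WT, -0.75, adjusted p = 0.00132). Nkrf, a repressor of NF-kB genes (-0.68), and Commd1, which promotes the turnover of the Rela protein (-0.66), fell as well. The list's M median was -0.41, beside -0.19 for all tested genes, of which 43.5% fell in M and 25.3% rose. Over all 10 genes without the filter 2 rose and 5 fell in M, beside 22.2% and 21.1% of all genes. The 2 were named after their values were seen. Bcl3, a nuclear IkB family member, read 7.94 ± 0.04 in M, against 5.12 ± 0.28 in WT, a rise of 2.83 (adjusted p = 2.61e-05 in the fit over all genes). Rel, a further activating subunit, read 7.64 ± 0.42 in M, against 5.07 ± 0.42 in WT, a rise of 2.57 (adjusted p = 0.000121 in that fit).

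Of 31 IKK kinases and signal adaptors, 17 were tested. In M 4 rose, 7 fell and 6 did not pass, where 25.3% of all tested genes rose and 43.5% fell. The median was -0.08, beside -0.19 for all tested genes. On the control RNA scale 0 rose and 14 fell, where 972 of the 9097 tested genes rose and 7175 fell. Bcl10, an adaptor of antigen receptor signalling, rose by 0.61 (adjusted p = 4.68e-05) on the deposited scale and differed by -0.38 on the control RNA scale without passing. Map3k7, the kinase upstream of IKK (-0.73, adjusted p = 8.07e-05), Tab1, its binding partner (-0.53), and Ikbkb, the catalytic IKK subunit (-0.29), fell in M. In E 1 of the 17 passed, Irak1, a kinase of interleukin 1 and Toll-like receptors, named after its values were seen (-0.63, adjusted p = 0.0492). Under each of the other 3 scalings 0 of the 17 passed, and 0 of 24 without the filter.

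Of 12 deubiquitinases and partners of the Tnfaip3 protein, 10 were tested. In M 6 rose and 2 fell on the deposited scale, with a median of 0.29, where 25.3% of all tested genes rose and 43.5% fell. On the control RNA scale 0 rose and 9 fell, where 972 of the 9097 tested genes rose and 7175 fell. The direction of those that rose as deposited thus rests on the scaling. Rnf11 (0.92), Zfand5 (0.54) and Tax1bp1 (0.34) rose and Otulin (-0.80) fell as deposited, and on the control RNA scale Rnf11 differed by -0.08, Zfand5 by -0.45, Tax1bp1 by -0.65 and Otulin by -1.80. In E 0 of the 10 passed in limma, also at an unadjusted p under 0.05.

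Of 12 ligands that start the pathway, 11 were represented and only Il1b was over the filter. It rose by 0.83 in M (adjusted p = 0.00800), which did not hold under the other 3 scalings (0.26, 0.21 and -0.16). Tnf, under the filter and named after its values were seen, read 5.02 to 6.37 in WT, 2.42 to 5.04 in E and 3.51 to 6.74 in M, and all groups overlapped. Without the filter 5 of the 11 ligands rose in M and 0 fell, beside 22.2% and 21.1% of all genes. Among the 5 were Tnfsf11, which encodes RANKL (10.27 ± 0.62 in M, 4.01 ± 1.04 in WT, 6.26, adjusted p = 4.22e-06), Il33 (4.24), Ltb (2.04) and Il18 (2.02), all named after their values were seen. In E 0 of the 11 passed in that limma fit. Of 17 receptors, 5 were tested and all 5 rose in M on the deposited scale (25.3% of tested genes did), 4 of them on the control RNA scale. The filter uses means that include the M arrays. Without it 10 of 15 receptors rose in M and 5 did not pass, where 22.2% of all genes rose. Tnfrsf1a, the main receptor of tumour necrosis factor, rose by 2.14 (adjusted p = 2.19e-07), Tnfrsf1b by 2.33, and Il1r1, the signalling receptor of interleukin 1, by 2.86. Tnfrsf12a fell in E, to 7.64 ± 0.11 against 8.54 ± 0.08 in WT (-0.90, adjusted p = 0.000643), and rose in M by 2.25 (adjusted p = 1.23e-08).

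Of 30 genes known as NF-kB targets and not among the members, 17 were tested. In M 15 rose, 1 fell (Sod2, -0.49) and 1 did not pass, with a median of 2.87, and 12 still rose on the control RNA scale, where the median was 1.88. Of all tested genes 25.3% rose and 43.5% fell in M as deposited. Without the filter, whose means include the M arrays, 21 of 29 targets rose in M, 1 fell and 7 did not pass, where 22.2% of all genes rose. In E 4 fell, 0 rose in limma (1 was higher at an unadjusted p under 0.05) and 13 did not pass, with a median of -0.53, where 1.65% of all tested genes fell. Without the filter 3 of 29 fell in E (0.693% of all genes). Ptgs2, the inducible prostaglandin synthase, read 8.59 ± 0.14 in E, against 10.07 ± 0.19 in WT (-1.49), and rose by 2.62 in M. The chemokine gene Cxcl1 fell by 0.87 in E (adjusted p = 0.0103, lost without WT replicate 1, WT replicate 3 or E replicate 1, with at most 0.0630) and rose by 4.38 in M. Ier3, a stress response gene, and Icam1, an adhesion molecule, rose by 3.44 and 3.62 in M, and their E differences of -0.53 and -0.78 did not pass. Ccl3 and Il6, named with Sod2 after their values were seen, are the other 2 targets that fell in E.

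**Figure D5:**
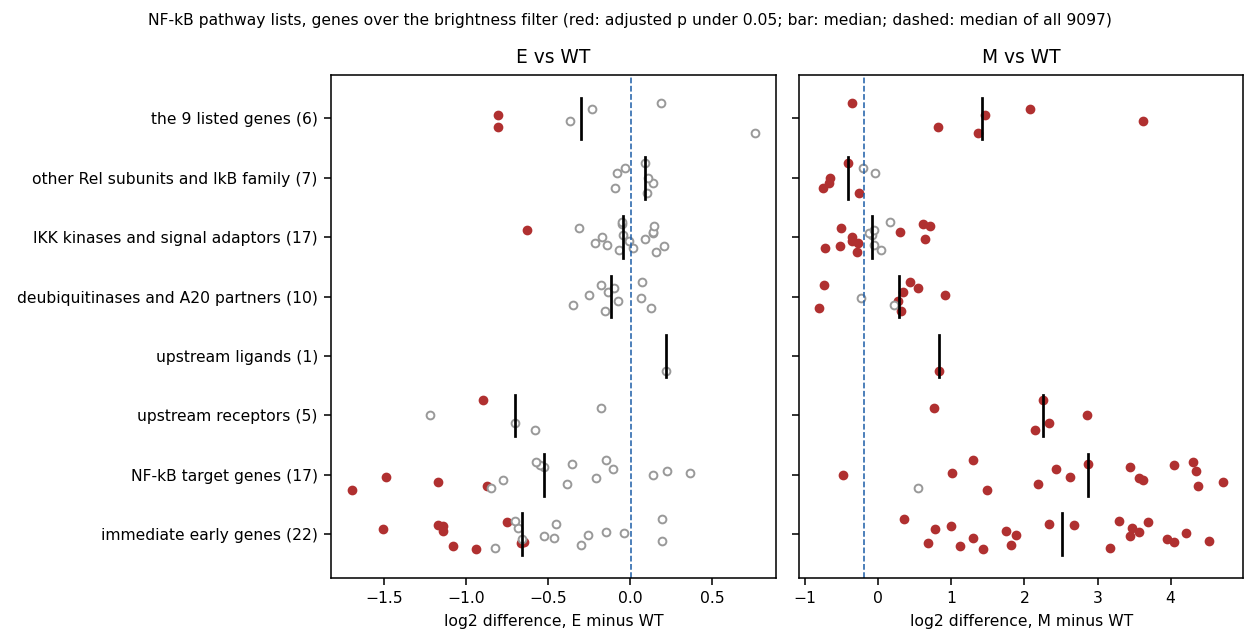
Log2 differences of E minus WT (left) and M minus WT (right) for the tested genes of the members and 7 lists, with the number tested in parentheses, in red where the adjusted p is under 0.05, and with the list median (bar) and the median of the 9097 tested genes (dashed). Receptors, targets (other than Sod2) and immediate early genes lie right of the dashed line in M and have medians left of it in E. The scale is the deposited one, and on the control RNA scale the calls above WT among IKK genes and deubiquitinases in M numbered 0. Of the 9097 tested genes 972 were called above WT in M on the control RNA scale.

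Other gene groups moved alongside. Of the 9097 tested genes 0.462% rose and 1.65% fell in E, and 25.3% rose and 43.5% fell in M as deposited. Immediate early genes, which cells induce within minutes of a stimulus and also of tissue handling, and which share only Ier3 with the target list, fell in E in 9 of 22 and rose in M in 22 of 22, with medians of -0.66 and 2.51. On the control RNA scale 6 fell in E, and in M 16 rose and 1 fell. On the log2 scale their summed signal was 14.68 to 14.75 in WT, 14.01 to 14.07 in E and 16.62 to 16.89 in M. Chondrocyte markers fell in E in 10 of 12 and rose in M in 12 of 12 (sum 14.77 to 14.99 in WT, 13.98 to 14.05 in E and 16.97 to 17.18 in M). Of the 11 tested pan-leukocyte markers 1 fell in E and 11 rose in M (12.50 to 12.68, 12.14 to 12.21 and 13.52 to 14.32), while on the control RNA scale 4 rose in M and 1 fell.

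Mesenchymal stromal markers rose in M in 13 of 13 tested (12.68 to 12.80 in WT, 12.87 to 12.99 in E and 16.56 to 16.88 in M) and 1 rose in E. Of all tested genes 25.3% rose in M, and in E 0.462% rose and 1.65% fell. Granulocyte markers split in E, where 5 of 10 rose and 2 fell, and rose in M in 10 of 10 (13.28 to 13.43, 13.64 to 13.77 and 16.52 to 16.79), with S100a9 at 8.03 to 8.34, 10.60 to 10.75 and 14.39 to 14.93. The 2 that fell in E, Mpo (-0.55) and Ctsg (-0.40), are primary granule genes named after their values were seen, and on the control RNA scale 0 of the 10 fell. Macrophage and monocyte markers had 3 tested members, of which 1 fell in E and 2 rose in M, and of all 12 without the filter 5 rose and 1 fell in M (summed signal of the list 10.33 to 10.56, 9.96 to 10.09 and 12.09 to 12.42). Of their defining genes, Csf1r read 9.49 to 9.80 in WT, 8.63 to 8.96 in E and 9.47 to 9.61 in M, and Adgre1 4.68 to 5.78, 4.90 to 5.65 and 7.24 to 7.54. The endothelial gene Cdh5 read 4.48 to 6.04, 4.52 to 6.02 and 7.69 to 8.50, and the erythroid gene Alas2 9.69 to 9.90, 7.49 to 7.90 and 8.50 to 11.74. B and T lineage markers rose in M in 4 of 4 tested, and erythroid markers fell in 4 of 10 on the deposited scale, in 7 of 10 after median centring and in 9 of 10 on the control RNA scale. Of the 9097 tested genes 3953 fell in M as deposited, 6639 after median centring and 7175 on the control RNA scale. Of 3 tested endothelial markers 1 rose and 2 fell (median -0.35). Of all 11 without the filter 7 rose and 2 fell (median 1.41), beside 22.2% and 21.1% of all genes. The part of these groups in the results for the NF-kB genes was not tested.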

How the data were processed

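Total RNA of the sorted cells was labelled by a 3′ in vitro transcription kit, per the labels' protocols. The deposited values are log2 MAS5 signals, MAS5 being named per the submitters' processing notes without a version. The trimmed mean of the linear signals was the same on every array, and a deposited zero stands for a linear signal of 1 or less. Genes were named from the array's annotation: 34958 of 45101 probe sets had 1 symbol, 932 several, and 9211 were not listed. Values were used as deposited. Differences, SE and 95% intervals came from a group model fitted to the 9 arrays with limma (version 3.58.1, R version 4.3.3) with an intensity trend, Benjamini-Hochberg adjustment and calls under 0.05. It was tested on simulated data. The members and lists were chosen with earlier results of these data known. Named list genes are the 4 tested members of each pathway list with the smallest F test p. Alternatives were pseudocounts of 1 and 64, other brightness filters, scalings, limma options, probe set means, single arrays left out, and the replicate number as a block. Replicate numbers did not pair the arrays (correlations of deviations from -0.10 to 0.08 over 9 pairs). The number of arrays limits the precision.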

Additional observations from a re-analysis of the deposited data

How the results depend on the processing

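Of 504 values of single members under the alternatives, 472 kept direction and side of the threshold, 7 gained a call, 17 lost one and 8 changed sign. Signs changed for Nfkb2 in M against E (-0.16 with median centring, -0.45 with control RNA scaling), Nfkbia in M against WT (-0.17 with control RNA scaling), Nfkbie in E against WT (-0.027 with array weights, -0.20 to 0.42 with 1 array left out), and, where probe sets of a gene were averaged, Tnfaip2 in M against WT (0.13) and Tnfaip3 in E against WT (0.086), which bring in probe sets under the filter. Members called in E against WT numbered 2 as reported, 1 with a pseudocount of 64, the brightest 4549 genes (2 members among them), quantile normalization, control RNA scaling, probe set means or the replicate block, 3 in a fit of the 2 groups alone (1 higher, Tnfaip2), 4 with array weights, and 1 to 4 with 1 array left out. The 4 without M replicate 3 were Nfkbia, Nfkbiz, Tnfaip3 and Tnfaip2. Relb in M against E lost its call with control RNA scaling (0.61, adjusted p = 0.224). Members called in M against WT numbered 6, and 3 with control RNA scaling. Among the brightest 4549 genes 2 were called in M against WT, in M against E and by the F test. All genes called in E against WT numbered 192 as reported, 85 among the brightest 4549, 118 with quantile normalization, 848 with array weights, 99 with probe set means, 756 in a fit of the 2 groups alone and 98 to 836 with 1 array left out (836 without M replicate 3). That filter gave 3466 genes in M against WT (6259 as reported) and 3485 in M against E (6368). The share of calls that were higher in E than in WT was 21.9% as reported, 36.8% with array weights or the 2 groups alone and 33.9% without M replicate 3. For M against WT it was 51.2% without the filter and 20.1% among the brightest. For M against E it was 37.3% as reported, 14.9% with median centring, 12.3% with control RNA scaling, 53.0% without the filter and 21.3% among the brightest. With the replicate block 1, 6 and 5 members were called in E against WT, M against WT and M against E, and Tnfaip3 in E lost its call (adjusted p = 0.0688). The F test was not run for the fits of 2 groups. Causes of these shifts were not tested. Signal near background limits Relb, Nfkbie and the member probe sets under the filter.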
